A study of Homo sapiens with 34 samples.

Results

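The 33 genes described here carry glucose into the cell, break it down to pyruvate and decide where pyruvate goes next. They were named by symbol under a rule that uses no measured value, although earlier results of these data were known by then, and all 33 were found among the 37951 genes of the count tables. They comprise the glucose transporters SLC2A1 and SLC2A3, PGM1, which links glycogen to glucose 6-phosphate, the hexokinases HK1 and HK2, GPI, the phosphofructokinases PFKM, PFKP and PFKL, and the regulatory enzymes PFKFB2, PFKFB3 and PFKFB4. They continue with ALDOA, ALDOC, TPI1, GAPDH, PGK1, PGAM1, BPGM, ENO1, ENO2 and PKM, then with the lactate genes LDHA, LDHB, SLC16A1 and SLC16A3. The last are the mitochondrial genes PDHA1, PDK1, PDK2, PDK3, PDK4, MPC1 and MPC2. All 33 passed the filter on low counts.

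RNA was measured in ESI017, an established wild-type human embryonic stem cell line, taken through primitive streak to endoderm or mesoderm over 48 h. There are 34 libraries, 2 for each of 17 conditions. Undifferentiated control cells stayed in mTeSR PLUS for 48 h. Day 1 treatments lasted 24 h in E6 medium. Differences from control thus include the change from mTeSR PLUS and, at 24 h, the shorter culture time. Neither can be told apart from the treatments. DE(a) was 100 ng/ml activin with 2 µM CHIR99021, a GSK3 inhibitor that activates WNT signalling. APS, anterior primitive streak, had activin at 30 ng/ml with bFGF at 20 ng/ml and CHIR99021 at 4 µM. MPS, mid primitive streak, kept the activin and bFGF of APS, raised CHIR99021 to 6 µM and added BMP4 at 40 ng/ml. PPS, posterior primitive streak, was MPS without activin. Each of these 4 populations was sampled at 24 h and was then placed in 3 media until 48 h. DE(b) medium, for definitive endoderm, had 100 ng/ml activin and 250 nM of the BMP receptor inhibitor LDN-193189. PM medium, for paraxial mesoderm, replaced activin by the activin receptor inhibitor A-8301 (1 µM) and bFGF (20 ng/ml) and kept LDN-193189 at 250 nM. The labels list no WNT activator in PM. The study, however, describes its PM protocol as including WNT activation. It also names CHIR99021 in the standard PM condition of its WNT dose experiment. Whether PM lacked CHIR99021 here is therefore uncertain and bears on every PM comparison. LM medium, for lateral mesoderm, combined A-8301 at 1 µM with BMP4 at 30 ng/ml and with IWP2, which blocks WNT secretion, at 4 µM. All of the libraries come from a single cell line. The study calls its replicates biological without saying whether they were separate differentiations, so the p-values measure the spread between these libraries.

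Glycolysis converts glucose to pyruvate and yields ATP without oxygen. Pyruvate is then reduced to lactate by lactate dehydrogenase and exported by monocarboxylate transporters, or it enters mitochondria through the pyruvate carrier and is oxidised by pyruvate dehydrogenase. Pyruvate dehydrogenase kinases switch that last step off by phosphorylating the enzyme. Human pluripotent stem cells are known for a high rate of glycolysis, and many genes of the pathway are known targets of hypoxia-inducible factors and of MYC.

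The promoters of 4 members are shown because their expression covered the range of responses. SLC16A3 rose most, PGM1 rose at every stage and PGK1 was called in 1 of the main comparisons of stage and medium. LDHA differed between day 1 treatments at 24 h (edgeR F test, adjusted p = 0.0469). The same test among day 1 treatments did not call it within any day 2 medium. Each is the 250 bases before the annotated start, 5′ to 3′, from RefSeq (GRCh38.p14, plus strand). Capitals mark ACGTG and GCGTG, the core letters of hypoxia response elements, on either strand. The windows are chr17:82228792-82229041 for SLC16A3, chr1:63593161-63593410 for PGM1, chrX:78103998-78104247 for PGK1 and chr11:18394313-18394562 for LDHA. The SLC16A3 and PGK1 windows lie within the annotated spans of their genes, upstream of the start of the reference transcripts.
SLC16A3: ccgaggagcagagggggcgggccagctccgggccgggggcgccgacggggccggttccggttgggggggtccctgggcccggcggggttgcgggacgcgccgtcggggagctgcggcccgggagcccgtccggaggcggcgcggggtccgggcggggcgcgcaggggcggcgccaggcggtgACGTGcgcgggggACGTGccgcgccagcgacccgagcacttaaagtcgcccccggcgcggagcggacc
PGM1: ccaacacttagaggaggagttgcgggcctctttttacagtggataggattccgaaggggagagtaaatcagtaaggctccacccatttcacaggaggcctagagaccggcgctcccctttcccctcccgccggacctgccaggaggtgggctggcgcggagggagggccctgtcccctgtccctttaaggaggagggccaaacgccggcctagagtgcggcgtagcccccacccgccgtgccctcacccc
PGK1: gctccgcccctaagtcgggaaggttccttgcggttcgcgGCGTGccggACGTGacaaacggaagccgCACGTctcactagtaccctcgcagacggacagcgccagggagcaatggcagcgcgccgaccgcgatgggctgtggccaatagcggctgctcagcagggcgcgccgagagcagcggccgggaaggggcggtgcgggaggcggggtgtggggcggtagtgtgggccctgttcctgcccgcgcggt
LDHA: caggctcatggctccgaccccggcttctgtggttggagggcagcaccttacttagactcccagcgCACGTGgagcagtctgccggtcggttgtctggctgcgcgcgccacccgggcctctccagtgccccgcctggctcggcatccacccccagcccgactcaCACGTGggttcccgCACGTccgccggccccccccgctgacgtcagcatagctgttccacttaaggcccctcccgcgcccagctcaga
SLC16A3 has 2 ACGTG matches, PGK1 has 2 and 1 GCGTG match, PGM1 has none, and LDHA has 5 ACGTG matches over both strands, which include 2 copies of CACGTG read on each strand. CACGTG is the core letters of an E-box and is its own reverse complement, so each copy also counts as ACGTG on both strands. Among the 24 members with a window at their reference start, 12 held ACGTG, 10 held GCGTG (41.7%) and 4 held CACGTG (16.7%). Over all 35116 promoters of this length, 18.5%, 32.2% and 6.34% held them. The members have 1 window each, at the reference start, and the full set was not limited or matched in that way or by GC content. The shares therefore do not measure an enrichment. These are letter matches, not measured binding.

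Library totals of estimated counts lay between 15522780 and 23439799 (median 19341117). Levels are given as CPM, a gene's counts over its library's total scaled to 1000000, which may be compared between libraries but not between genes. Each marker set had its highest median in its own stage or medium, but streak markers overlapped between 24 h and DE(b). Endoderm markers were lower in some DE(b) libraries. The summed pluripotency markers POU5F1, NANOG and SOX2 were at 1208 to 1477 CPM in control. Streak markers TBXT, MIXL1 and EOMES reached 1574 to 2955 CPM at 24 h, endoderm markers 3444 to 6414 CPM in DE(b), paraxial markers 199 to 281 CPM in PM and lateral markers 451 to 2263 CPM in LM. The streak sum was still 1021 to 1739 CPM in DE(b), and the endoderm sum was already 1893 and 1349 CPM in DE(a)-24h. CER1 made up most of the endoderm sum. FOXA2, which defines definitive endoderm, was at 86.0 and 125 CPM in DE(a)-DE(b), 52.9 and 79.1 CPM in APS-DE(b), 17.1 and 37.8 CPM in MPS-DE(b) and 2.17 and 11.001 CPM in PPS-DE(b). SOX17 was at 113 and 224 CPM in PPS-DE(b) and 330 to 553 CPM in the other DE(b) libraries, and DE(a)-LM also held 94.8 and 69.6 CPM of it. The part of these gaps in the results below was not tested, and day 2 effects are also given by population. The amnion markers GATA3, TFAP2A and VTCN1 summed to 62.1 to 312 CPM in LM against at most 15.3 CPM in DE(b) and PM. In bulk RNA, fewer cells of a type and less RNA per cell cannot be told apart. Summed markers of blood and endothelium (at most 3.21 CPM) and of neural cells (at most 0.957 CPM) stayed low throughout.

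**Figure D1:**
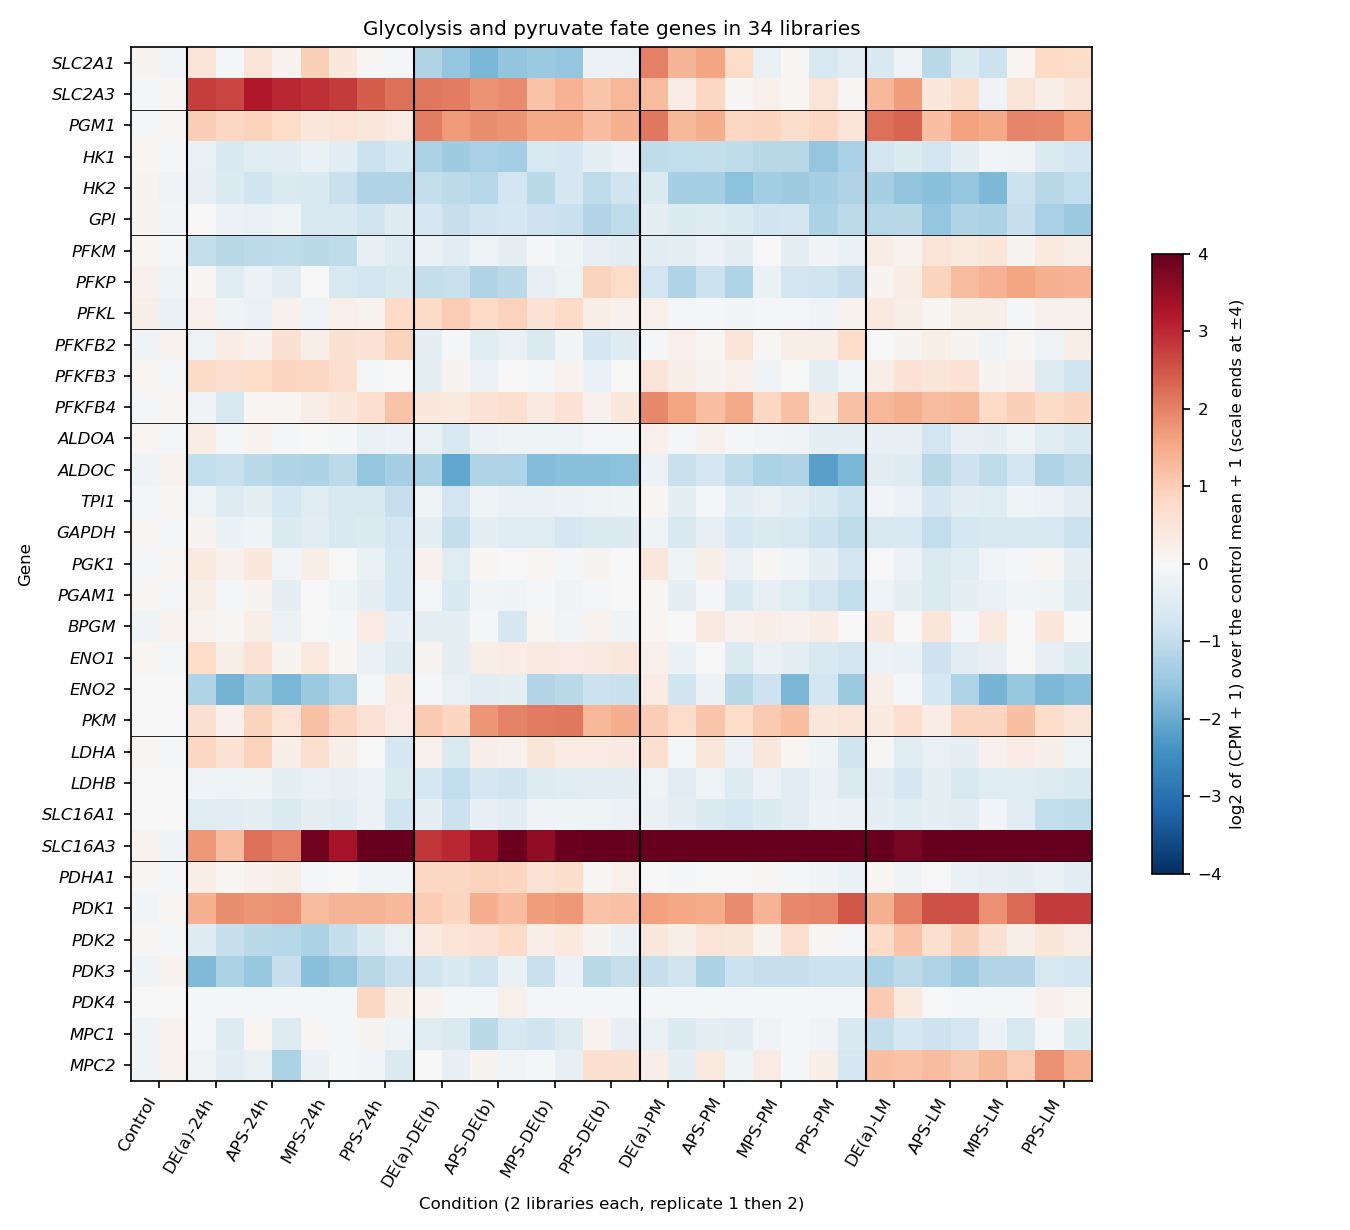
Level of each of the 33 genes (rows, ordered by role) in each of the 34 libraries (columns, grouped by stage and medium), as log2 of CPM plus 1 over the control mean plus 1, with the colour scale ending at 4 either way. SLC16A3 and PDK1 are above control in all differentiated libraries, SLC2A3 is highest at 24 h, and most enzymes of the lower pathway stay near control.

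The glucose transporters changed at different stages. SLC2A3 encodes GLUT3, the high-affinity transporter, and lies on the minus strand of chromosome 12 (GRCh38, 7919230 to 8019007). It stood at 483 and 517 CPM in the control libraries. At 24 h the 8 libraries held 2312, 3429 and 4579 CPM (lowest, median, highest), all above control. The level then fell in every medium. It was 1081, 1525 and 2155 CPM in DE(b), 512, 593 and 1191 CPM in PM, and 448, 702 and 1604 CPM in LM, with no day 2 library as high as the lowest at 24 h. The averaged log2 fold change was 2.83 ± 0.26 (SE) at 24 h against control (edgeR quasi-likelihood test, adjusted p = 2.04e-08). Against 24 h it was -1.19 ± 0.14 in DE(b) (adjusted p = 2.41e-07), -2.41 ± 0.14 in PM (adjusted p = 8.01e-12) and -2.11 ± 0.14 in LM (adjusted p = 2.82e-11). The PM difference from control was 0.42 ± 0.22 and did not pass (adjusted p = 0.126). In DE(b) it remained 1.64 ± 0.24 above control. SLC2A14, whose sequence is nearly identical to that of SLC2A3, was at 6.07 to 26.3 CPM at 24 h, and reads that fit both genes are an uncertainty of the SLC2A3 level.

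SLC2A1 encodes GLUT1, the widespread basal transporter (chromosome 1, 42925353 to 42958893, minus strand). Control libraries held 194 and 226 CPM and the 24 h libraries 197, 254 and 406 CPM, a difference of 0.39 ± 0.25 that did not pass (adjusted p = 0.263). In DE(b) it was lowest, with 58.3, 72.5 and 177 CPM, below every 24 h and control library. It fell there by 1.57 ± 0.16 on the log2 scale against 24 h (adjusted p = 3.48e-08). LM libraries held 99.8, 164 and 363 CPM, overlapping those at 24 h, with a difference of -0.52 ± 0.16 (adjusted p = 0.00656). PM libraries spread from 133 to 852 CPM around a median of 284 CPM, and the average over them did not differ detectably from 24 h (0.17 ± 0.16, adjusted p = 0.411). The wide PM range followed the day 1 treatment, as described further on. The CPM ratio of SLC2A3 to SLC2A1 within a library was 2.14 and 2.67 in control, 9.34 to 17.7 at 24 h, 6.12 to 29.6 in DE(b), 1.12 to 5.34 in PM and 1.67 to 9.12 in LM. As CPM is not corrected for length, only its movement between stages is meaningful, and it was not tested.

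**Figure D2:**
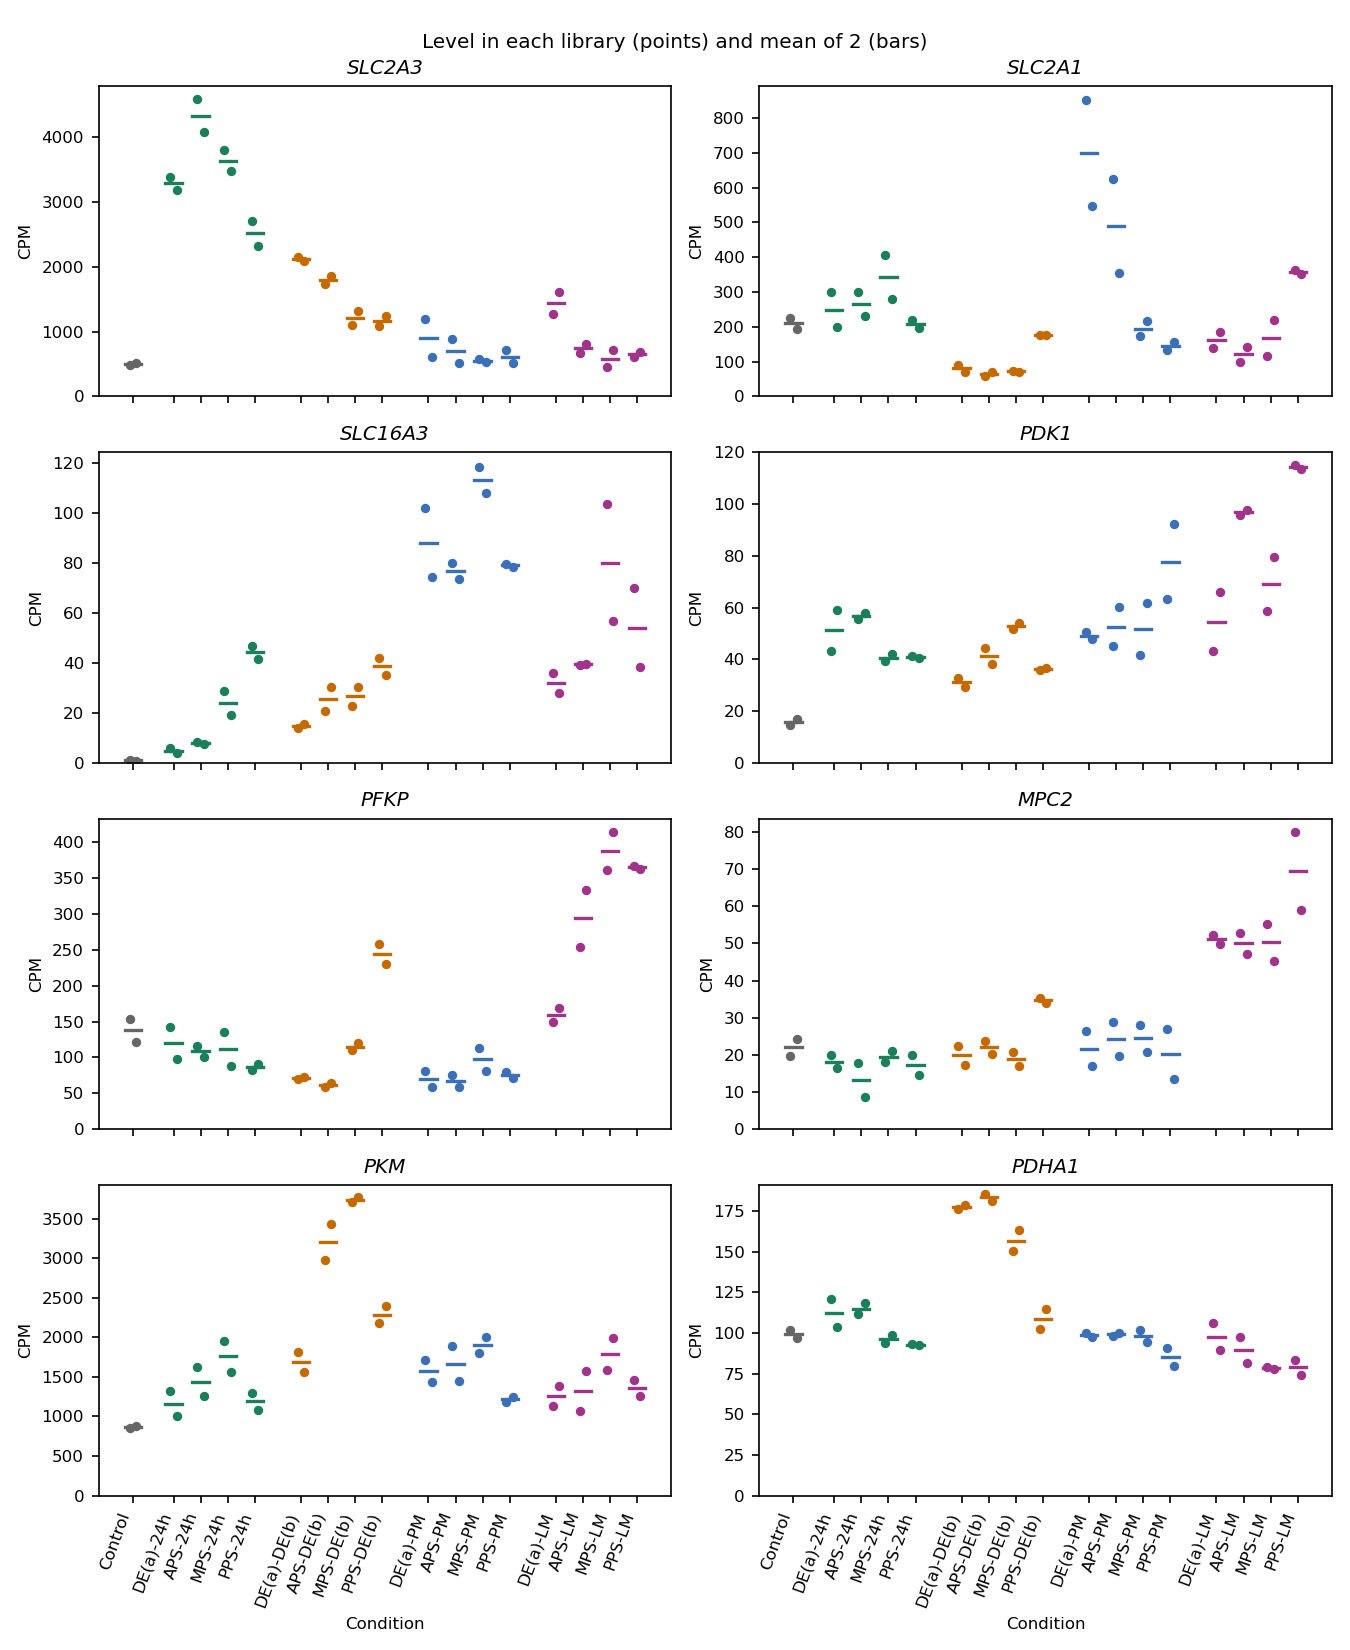
CPM per library (points) of SLC2A3, SLC2A1, SLC16A3, PDK1, PFKP, MPC2, PKM and PDHA1 in control, at 24 h and in the 3 media, by day 1 population. SLC2A3 peaks at 24 h, SLC16A3 is highest in PM with 73.5 to 118 CPM, MPC2 is highest in LM with 45.3 to 80.0 CPM, and PKM is highest in DE(b) with a median of 2684 CPM.

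PGM1, phosphoglucomutase, converts glucose 1-phosphate from glycogen into glucose 6-phosphate and was called higher at 24 h (0.75 ± 0.19, adjusted p = 0.00319, and 0.0579 without Control replicate 1) and higher again in every medium. Control libraries held 47.8 and 50.4 CPM. The levels were 62.5, 77.5 and 97.4 CPM at 24 h, 117, 153 and 206 CPM in DE(b), 71.0, 89.1 and 213 CPM in PM and 115, 172 and 251 CPM in LM. All DE(b) and LM libraries lay above all 24 h libraries, and PM overlapped them. Log2 fold changes of DE(b), PM and LM against 24 h were 0.95 ± 0.11, 0.35 ± 0.11 and 1.13 ± 0.11 (adjusted p = 2.87e-07, 0.013 and 1.71e-08). The PM call was lost without DE(a)-PM replicate 1 or APS-PM replicate 1 (adjusted p up to 0.0598). Of the enzymes that trap glucose by phosphorylation, HK1 held 344 and 380.0 CPM in control and 199.7, 262 and 303 CPM at 24 h. It fell further in PM (-0.71 ± 0.07, adjusted p = 3.37e-08) to 124, 173 and 186 CPM, below every 24 h library, whereas the LM average was at -0.02 ± 0.07 (adjusted p = 0.869). HK2, the inducible isozyme, fell by 0.60 ± 0.13 in PM and by 0.61 ± 0.13 in LM against 24 h (adjusted p = 0.000426 and 0.000288). GPI, which turns glucose 6-phosphate into fructose 6-phosphate, fell in each medium, most in LM, where 144 to 218 CPM compared with 240.3 to 413 CPM at 24 h (-0.86 ± 0.08, adjusted p = 3.8e-09). A second identifier of GPI held 0.128 to 13.01 CPM and was kept apart.

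The committed step of glycolysis is carried by 3 phosphofructokinase genes, and each moved differently. PFKM, the muscle-type isozyme, went down at 24 h and up again on day 2. It held 98.4 and 109.6 CPM in control, 47.7, 51.1 and 82.8 CPM at 24 h, 75.7 to 99.3 CPM in DE(b), 77.5 to 103 CPM in PM and 113, 133 and 148 CPM in LM. The 24 h libraries were all below control, and the LM libraries were all above it. Log2 changes were -0.81 ± 0.09 at 24 h against control (adjusted p = 4.6e-07) and 1.19 ± 0.06 in LM against 24 h (adjusted p = 7.75e-13). PFKP, the platelet-type isozyme, was highest in LM, with 149, 347 and 415 CPM against 82.2, 99.0 and 143 CPM at 24 h and 58.4, 77.6 and 113 CPM in PM. In unscaled CPM the LM libraries were above all of those at 24 h and in PM. The lowest, DE(a)-LM replicate 1 (149 CPM), was close to DE(a)-24h replicate 1 (143 CPM). The fit's scaling factors for them were 1.07 and 0.961, so their order reverses after scaling, and LM then overlaps 24 h. LM exceeded PM by 1.96 ± 0.11 (adjusted p = 3.85e-12). PFKL, the liver-type isozyme, rose in DE(b) alone of the 3 media against 24 h (0.50 ± 0.10, adjusted p = 0.00032), and DE(b) exceeded PM by 0.73 ± 0.10 (adjusted p = 3.61e-06) and LM by 0.47 on the same scale (LM against DE(b) -0.47 ± 0.10, adjusted p = 0.000657).

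The PFKFB enzymes set the level of fructose 2,6-bisphosphate, the main activator of phosphofructokinase. PFKFB3, the form with the strongest kinase activity, held 42.8 and 47.4 CPM in control and 43.0, 73.8 and 82.4 CPM at 24 h. Averaged over the day 1 populations, it rose by 0.64 ± 0.14 at 24 h (adjusted p = 0.00111). Against 24 h the average fell by 0.68 ± 0.09, 0.60 ± 0.09 and 0.48 ± 0.09 in DE(b), PM and LM (adjusted p = 8.01e-07, 4.8e-06 and 5.62e-05). PPS-24h, at 43.0 and 45.3 CPM, lay within the control values, and the other 24 h libraries held 70.6 to 82.4 CPM. PPS-DE(b) held 37.5 and 44.5 CPM. Day 2 averages were within 0.16 of control. PFKFB4 went the other way on day 2. From 8.44, 15.7 and 31.5 CPM at 24 h it rose to 18.8, 32.7 and 55.3 CPM in PM (0.96 ± 0.11, adjusted p = 4.35e-07) and 24.0, 30.8 and 38.3 CPM in LM (0.85 ± 0.11, adjusted p = 1.53e-06), with overlap in both. DE(b) libraries held 15.5 to 22.4 CPM, a difference of 0.18 ± 0.12 (adjusted p = 0.196). PFKFB2 fell in DE(b) (-0.86 ± 0.12, adjusted p = 4.76e-06), where the libraries held 17.2, 20.1 and 26.7 CPM against 24.2, 38.2 and 51.8 CPM at 24 h, with overlap.

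The enzymes of the lower pathway changed little by comparison. ALDOA, TPI1, GAPDH, PGK1, PGAM1 and ENO1 had averaged log2 changes between -0.47 and 0.26 at 24 h against control and between -0.59 and 0.23 against 24 h in the 3 media. GAPDH, the enzyme that reduces NAD+ and is often used as a reference gene, was at 3595 and 3818 CPM in control and 1893, 2368 and 2453 CPM in LM, all below control (-0.66 ± 0.14, adjusted p = 0.000518). PGK1, which makes the earlier of the ATP yields, was called in LM against 24 h only (-0.28 ± 0.12, adjusted p = 0.0409), and 12 of 34 fits that left out 1 library lost that call. ENO1, the main enolase, fell in PM (-0.59 ± 0.11, adjusted p = 0.000125) and LM (-0.58 ± 0.11, adjusted p = 0.000107), and its DE(b) average stayed at 0.02 ± 0.11. BPGM, which makes the haemoglobin ligand 2,3-bisphosphoglycerate, was between 8.06 and 18.9 CPM in every library and was called in neither 24 h against control nor any medium against 24 h.

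At 24 h against control, the second isozymes of aldolase and enolase, both typical of brain, had larger changes than the first. ALDOC held 47.5 and 58.6 CPM in control and 17.4, 23.4 and 28.2 CPM at 24 h, with no overlap (-1.13 ± 0.17, adjusted p = 1.69e-05). ENO2 held 96.5 and 99.0 CPM in control and 25.4, 38.2 and 126 CPM at 24 h, where 1 PPS-24h library lay above control and the other at 95.2 CPM. Its average change was -1.03 ± 0.25 (adjusted p = 0.00305). PKM, pyruvate kinase, makes pyruvate and has alternative isoforms that gene counts do not separate. It held 858 and 885 CPM in control, 1003, 1309 and 1954 CPM at 24 h and 1565, 2684 and 3779 CPM in DE(b). It rose by 0.73 ± 0.17 at 24 h (adjusted p = 0.0024) and by a further 0.90 ± 0.11 in DE(b) (adjusted p = 3.18e-07). PM and LM averages were within 0.11 of 24 h.

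Of the lactate genes, the transporter MCT4, encoded by SLC16A3, had the largest change of all members. It exports lactate from glycolytic cells and lies on chromosome 17 (82217934 to 82261129, plus strand). The control libraries held 0.837 and 1.27 CPM. The 24 h libraries held 3.83, 13.8 and 46.8 CPM, DE(b) 14.0, 26.7 and 42.1 CPM, LM 27.9, 39.5 and 104 CPM and PM 73.5, 79.9 and 118 CPM. Every differentiated library was above both controls, and every PM library was above all at 24 h and in DE(b). The increase at 24 h was 3.80 ± 0.33 (adjusted p = 6.56e-09). Against 24 h, SLC16A3 rose by 2.54 ± 0.15 in PM, 1.73 ± 0.14 in LM and 0.78 ± 0.14 in DE(b) (adjusted p = 6.11e-12, 1.18e-09 and 0.000103). PM therefore stood 6.34 ± 0.36 above control (adjusted p = 4.38e-12). SLC16A1, encoding MCT1, which carries lactate and pyruvate in either direction, held 675 and 702 CPM in control and 340.2 to 635 CPM elsewhere, below control in every library. It fell by 0.39 ± 0.11 at 24 h (adjusted p = 0.0117), a call lost without either control library (adjusted p up to 0.118). Averaged over the day 1 populations, no medium moved it further (differences between -0.09 and 0.09). In LM, however, PPS-LM held 350.0 and 340.2 CPM and the other LM libraries 494 to 635 CPM. PPS-24h held 585 and 395 CPM.

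LDHA, the subunit that favours lactate, held 474 and 506 CPM in control, 306, 663 and 925 CPM at 24 h, 325 to 681 CPM in DE(b), 279 to 771 CPM in PM and 348 to 622 CPM in LM. The groups overlapped throughout. The 24 h average was 0.44 ± 0.24 above control without passing (adjusted p = 0.188). LM was lower than 24 h by 0.46 on the log2 scale (-0.46 ± 0.15, adjusted p = 0.012, and 0.0551 without APS-24h replicate 1). The PM difference of -0.39 ± 0.15 (adjusted p = 0.0389) was lost in 13 of 34 fits without 1 library. LDHA was also lower in replicate 2 than in replicate 1 in 15 of 17 conditions, by a median of -0.40 on the log2 scale, and both calls held in a fit with the replicate number as a block. LDHB, the subunit of oxidative tissues, fell by 0.38 ± 0.07 in DE(b) (adjusted p = 0.000105) and by 0.28 ± 0.07 in LM (adjusted p = 0.00161). The ratio of LDHA to LDHB was 0.353 and 0.389 in control and 0.347 to 0.778 at 24 h.

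The pyruvate dehydrogenase kinases differed from control in opposite directions at 24 h. PDK1, a known hypoxia target, rose from 14.5 and 16.8 CPM in control to 39.2, 42.6 and 59.3 CPM at 24 h (1.66 ± 0.21, adjusted p = 1.61e-06). PDK2, the widely expressed kinase, went from 13.7 and 14.8 CPM to 5.35, 6.99 and 11.5 CPM (-0.85 ± 0.16, adjusted p = 0.000293). PDK3 went from 88.9 and 109 CPM to 28.3, 37.6 and 53.1 CPM (-1.27 ± 0.16, adjusted p = 2.58e-06). None of the 3 genes overlapped between control and 24 h. On day 2, PDK2 rose in all 3 media, to 11.8, 19.1 and 25.2 CPM in DE(b), 13.7, 18.4 and 22.8 CPM in PM and 16.9, 22.7 and 32.6 CPM in LM. The changes were 1.26 ± 0.11, 1.16 ± 0.11 and 1.57 ± 0.11 (adjusted p = 3.58e-09, 1.3e-08 and 6.84e-11), and every day 2 library exceeded every 24 h library. PDK1 rose further in LM, to 43.3, 87.7 and 115 CPM (0.75 ± 0.12, adjusted p = 9.37e-06), where it stood 2.41 ± 0.22 above control. PDK3 regained part of its level in DE(b) (0.61 ± 0.11, adjusted p = 0.000107) and stayed below control in each medium. PDK4 was listed at 0 in 23 of 34 libraries and reached 1.15 CPM at most, in DE(a)-LM replicate 1, against 0.128 to 0.193 CPM for 3 counts, so no fold is given.

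PDHA1, the catalytic subunit that those kinases phosphorylate (chromosome X, 19343893 to 19361718, plus strand), rose in DE(b) and fell in the mesoderm media. Control libraries held 96.8 and 102 CPM and 24 h libraries 92.5, 101 and 121 CPM. DE(b) libraries held 102, 169.6 and 185 CPM, PM 79.9, 97.7 and 102 CPM and LM 74.4, 82.4 and 106 CPM, all overlapping the 24 h range. The differences from 24 h were 0.53 ± 0.05, -0.22 ± 0.05 and -0.31 ± 0.05 (adjusted p = 1.32e-08, 0.00111 and 1.94e-05), and the PM call was lost with unscaled library totals or without the filter. DE(b) was above PM by 0.75 ± 0.05 (adjusted p = 4.52e-11). The mitochondrial pyruvate carrier is a dimer of MPC1 and MPC2, and its genes diverged in LM. MPC2 held 19.7 and 24.3 CPM in control, 8.60, 18.0 and 20.9 CPM at 24 h and 45.3, 52.5 and 80.0 CPM in LM, above every library of the other states. It rose by 1.66 ± 0.16 in LM against 24 h (adjusted p = 7.31e-09). The DE(b) increase was 0.42 ± 0.15 (adjusted p = 0.0274), with overlap, and 6 of 34 fits that left out 1 library lost that call. MPC1 was at 5.03 to 10.1 CPM in LM against 7.10 to 11.7 CPM at 24 h, lower by 0.54 on the log2 scale (-0.54 ± 0.14, adjusted p = 0.00218). The amnion markers given above were also highest in LM, and their part in the LM results was not tested.

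Counted over the 33 members, 24 h against control called 6 higher and 10 lower, where 32.5% of the 17895 genes tested were called, 16.9% higher and 15.6% lower. The median log2 change was -0.06 over the members and 0.01 over all genes. Without Control replicate 1, 10 members were called, and PGM1, HK1, HK2, GPI, TPI1 and SLC16A1 missed the threshold. DE(b) against 24 h called 9 higher and 11 lower (51.0% of all genes, 24.8% and 26.2% by direction, medians -0.04 and -0.02). PM against 24 h called 6 higher and 12 lower (48.2% of all genes, 23.2% and 25.1% by direction, medians -0.17 and -0.02). LM against 24 h called 9 higher and 14 lower (56.0% of all genes, 27.4% and 28.6% by direction, medians -0.02 and -0.01). These 3 comparisons share the 24 h libraries and are not independent of each other. Between media, DE(b) against PM called 11 higher and 8 lower (43.0%, 21.4% higher and 21.6% lower), LM against PM 9 higher and 4 lower (42.0%, 21.0% in each direction) and LM against DE(b) 12 higher and 8 lower (39.6%, 19.8% in each direction). Against the shared control libraries, DE(b) called 8 higher and 11 lower (45.3%, 22.4% higher and 22.9% lower), PM 5 higher and 13 lower (45.0%, 22.3% higher and 22.7% lower) and LM 10 higher and 11 lower (48.9%, 24.3% higher and 24.6% lower). In LM against PM the members' share lay close to that of all genes.

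**Figure D3:**
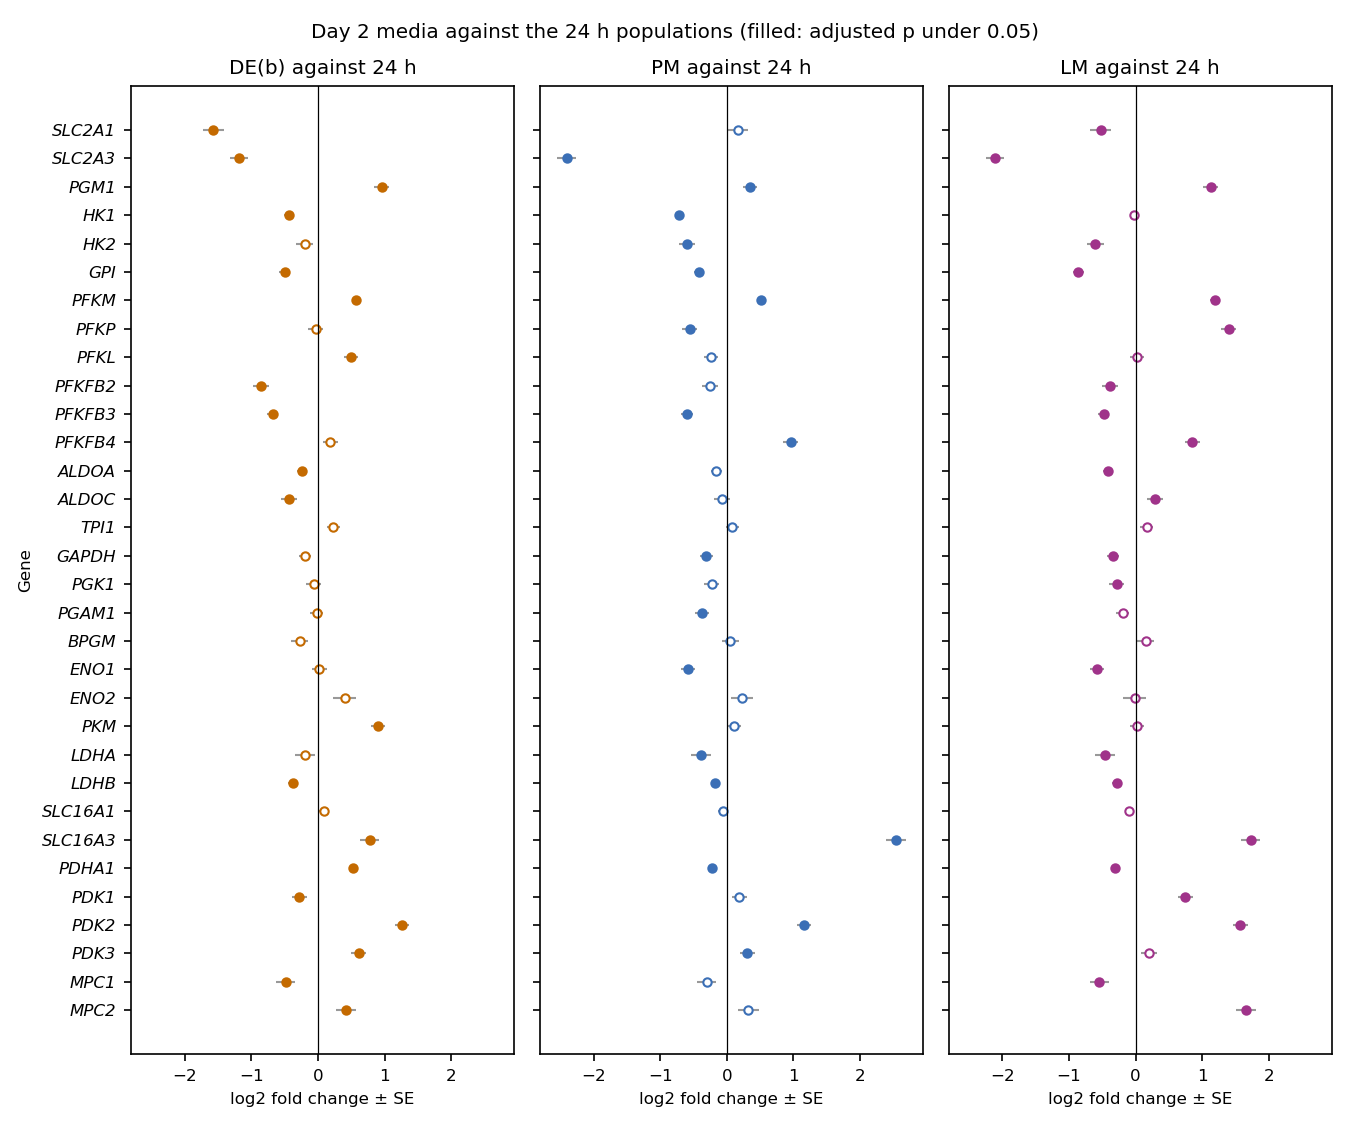
Log2 fold change of each member (rows) in DE(b), PM and LM against 24 h, averaged over the 4 day 1 populations, with bars for 1 SE. Filled points passed the test at an adjusted p under 0.05, and PDK4 is left out. SLC2A3 lies lowest in PM at -2.41, SLC16A3 highest in PM at 2.54, and MPC2 and PFKP are at 1.66 and 1.40 in LM.

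The summed CPM of 15 glycolytic enzymes, from HK1 and HK2 to PKM, was 10521 and 11234 in control, 7697 to 13198 at 24 h, 7821 to 12558 in DE(b), 6754 to 11554 in PM and 6919 to 10326 in LM. In unscaled CPM every LM library lay below both controls, and the other ranges overlapped each other. The fit's scaling factors were 0.934 for MPS-LM replicate 2, the highest LM library, and 1.03 and 1.01 for control. After that scaling MPS-LM replicate 2 lay above both controls. GAPDH and ENO1 made up much of that sum, so a change in a minor isozyme barely registers in it. Among conditions the lowest means were in PPS-PM (6969 ± 304 CPM, SD, n = 2) and APS-LM (7791 ± 1234 CPM), and the highest were in MPS-DE(b) (12388 ± 241 CPM) and APS-DE(b) (11906 ± 249 CPM).

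**Figure D4:**
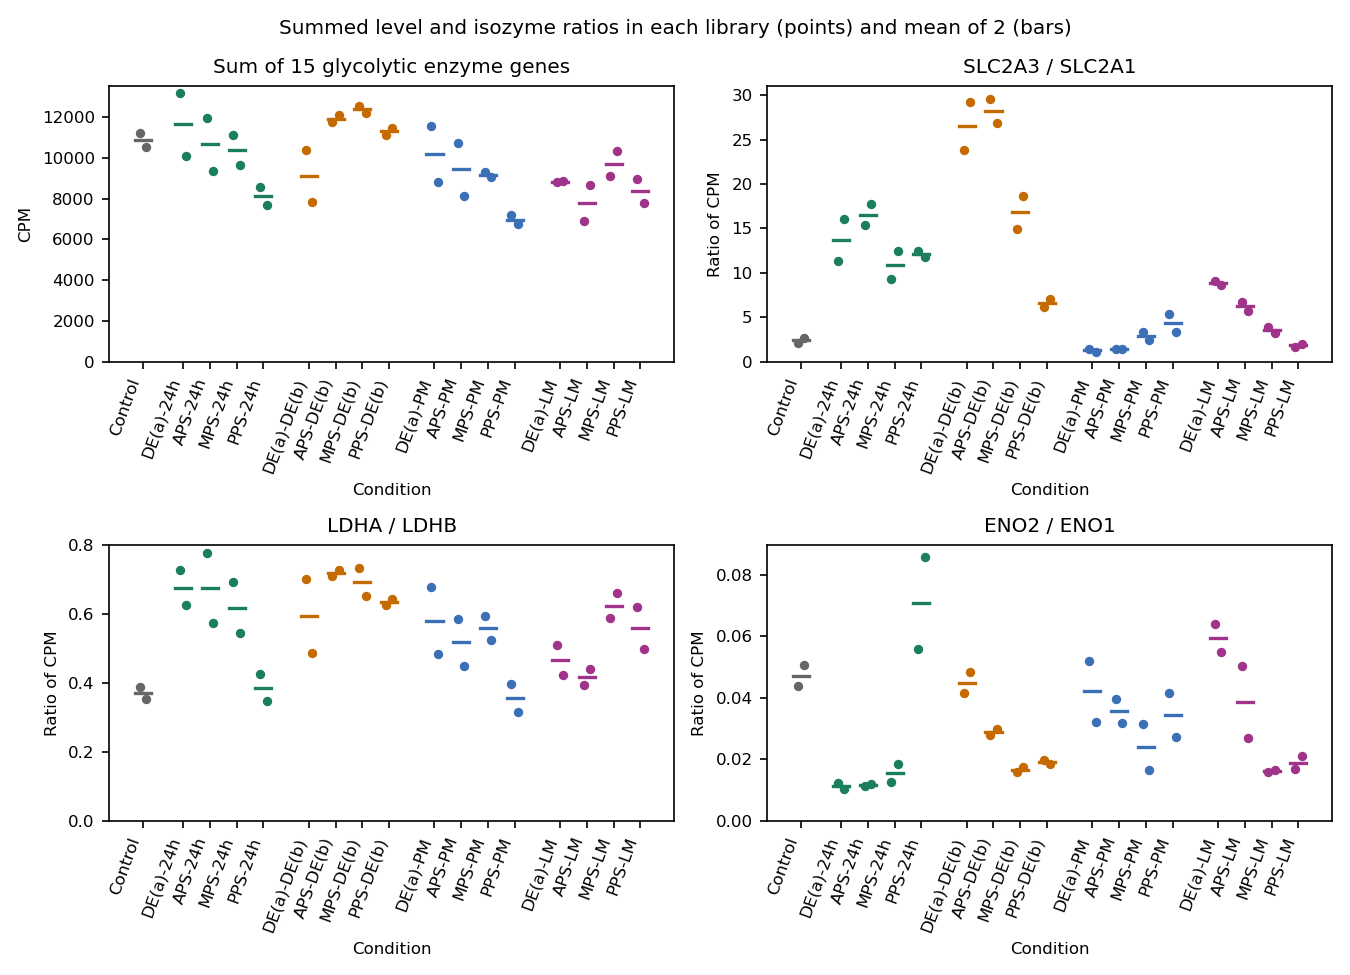
Summed CPM of the 15 glycolytic enzymes and the CPM ratios SLC2A3 to SLC2A1, LDHA to LDHB and ENO2 to ENO1, 1 point per library, in control, at 24 h and in the 3 media. In unscaled CPM, the sum in LM lies below control in every library and the other stages overlap. The transporter ratio is 9.34 to 17.7 at 24 h against 2.14 and 2.67 in control. By the mean of a condition, ENO2 to ENO1 is highest in PPS-24h (0.0709), where the libraries held 0.0559 and 0.0859. DE(a)-LM libraries held 0.0639 and 0.0550.

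The day 1 treatment divided the members already at 24 h. Between the 4 populations, 10 members differed (F test over 3 contrasts, edgeR quasi-likelihood), where 18.8% of all genes did. They were GPI, PFKM, PFKFB3, PFKFB4, ENO1, ENO2, LDHA, SLC16A3, PDHA1 and PDK4. PDK4 was at 0 in every 24 h library outside PPS-24h, which held 0.883 and 0.241 CPM. As 3 counts make 0.128 to 0.193 CPM, the PDK4 call rests on very few counts. SLC16A3 was graded from DE(a)-24h (5.90 and 3.83 CPM) through APS-24h (8.46 and 7.40 CPM) and MPS-24h (28.7 and 19.1 CPM) to PPS-24h (46.8 and 41.6 CPM), with adjusted p = 2.25e-07. ENO2 was at 95.2 and 126 CPM in PPS-24h and between 25.4 and 41.8 CPM in the other 6 libraries (adjusted p = 0.000709). LDHA was lowest in PPS-24h, with 480.4 and 306 CPM against 573 to 925 CPM elsewhere (adjusted p = 0.0469). Leaving out DE(a)-24h replicate 1, PPS-24h replicate 1 or PPS-24h replicate 2 lowered the count of members from 10 to 6 each time. It was also 6 with the compared libraries alone, and 16 without the filter or with the replicate block.

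PPS cells, which had BMP4, bFGF and 6 µM CHIR99021 and no activin, differed most. PPS-24h against DE(a)-24h called 15 members, 4 higher and 11 lower, where 20.9% of all genes were called, 10.7% higher and 10.2% lower. The higher ones were SLC16A3 (3.11 ± 0.31), ENO2 (1.64 ± 0.35), PFKFB4 (1.30 ± 0.23) and PFKM (0.54 ± 0.13). The lower ones included enzymes of the trunk of the pathway: ENO1 (-0.97 ± 0.22), PGK1 (-0.82 ± 0.23), PGAM1 (-0.71 ± 0.20), GAPDH (-0.66 ± 0.19) and ALDOA (-0.47 ± 0.15), with LDHA (-1.103 ± 0.304). Without DE(a)-24h replicate 1, 10 of the 15 calls were lost and 5 held, for PFKM, PFKFB3, PFKFB4, ENO2 and SLC16A3. The summed amnion markers were 89.0 and 129 CPM in PPS-24h, and their part in these differences was not tested. MPS-24h against DE(a)-24h called 3 members, SLC16A3 (2.30 ± 0.31), PFKFB4 (0.77 ± 0.23) and GPI (-0.50 ± 0.15), where 8.97% of all genes were called, 5.62% higher and 3.35% lower. The GPI call was lost in 22 of 34 fits without 1 library. APS-24h and DE(a)-24h both lack BMP4 but differ in activin, bFGF and CHIR99021. Between them 0 members were called by edgeR, with 1 member at an unadjusted p under 0.05, where 0.732% of all genes were called.

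After day 2 the populations differed in some of these members and in others. In DE(b), 6 differed between day 1 treatments (16.6% of all genes): SLC2A1, HK1, PFKP, PKM, and again SLC16A3 and PDHA1. The count was 11 without the filter, 10 with the replicate block and 11 with the compared libraries alone. PPS-DE(b) held 176.8 and 176.4 CPM of SLC2A1, against 58.3 to 90.5 CPM in the other 6 libraries. PFKP was at 258 and 230.5 CPM in PPS-DE(b), 110.2 and 119.9 CPM in MPS-DE(b) and 59.3 to 73.4 CPM in the others. HK1 followed the same order, from 134 to 149.8 CPM after DE(a) or APS up to 284 and 306 CPM in PPS-DE(b). PDHA1 ran the other way, with 102 and 115 CPM in PPS-DE(b) and 150.3 to 185 CPM elsewhere. PKM was highest in MPS-DE(b) (3709 and 3779 CPM) and lowest in DE(a)-DE(b) (1813 and 1565 CPM).

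In PM, 5 members differed between day 1 treatments (7.47% of all genes): SLC2A1, PGM1, GPI, PFKFB4 and ALDOC. SLC2A1 was at 852 and 546 CPM in DE(a)-PM, 623 and 353 CPM in APS-PM, 172 and 215 CPM in MPS-PM and 133 and 155 CPM in PPS-PM (F test, adjusted p = 9.84e-05). Both populations that had BMP4 on day 1 lay below both that had not. They were also the ones with 6 µM CHIR99021, so BMP4 and the CHIR99021 dose cannot be told apart here. Without DE(a)-PM replicate 1, 2 of the 33 members were called in this test, and 3 without PPS-PM replicate 1. The count was 1 with the compared libraries alone, 8 with the replicate block and 11 without the filter. In LM, 9 members differed (19.6% of all genes): SLC2A1, SLC2A3, HK1, PFKP, PFKFB3, ENO2, SLC16A1, SLC16A3 and PDK1. Here SLC2A1 was highest in PPS-LM, at 363 and 351 CPM against 99.8 to 219 CPM in the other 6 libraries (adjusted p = 0.00212). PFKP was at 149 and 169 CPM in DE(a)-LM and 254 to 415 CPM in the others (adjusted p = 0.000353). PDK1 was at 115 and 114 CPM in PPS-LM and 43.3 and 65.9 CPM in DE(a)-LM (adjusted p = 0.00369). ENO2 was at 114 and 95.6 CPM in DE(a)-LM and 26.4 to 59.2 CPM in the others (adjusted p = 0.00103). The summed amnion markers were 226 and 312 CPM in PPS-LM, 184 and 229 CPM in DE(a)-LM and 62.1 to 98.5 CPM in APS-LM and MPS-LM, and their part in these differences was not tested.

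Whether the effect of the day 1 treatment itself depended on the day 2 medium was tested as an interaction over the 12 conditions at 48 h. It was called for 8 members, where 13.1% of all genes were called: SLC2A1, HK1, PFKP, PFKFB3, ALDOC, SLC16A1, SLC16A3 and PDHA1. SLC2A1 reversed its order between media. PPS exceeded DE(a) by 1.17 ± 0.32 in DE(b) and 1.23 ± 0.31 in LM and lay below it in PM (-2.25 ± 0.32). The DE(b) call was lost without DE(a)-DE(b) replicate 2 or either PPS-DE(b) library, and the LM call without DE(a)-LM replicate 1. HK1 and PFKP were higher after PPS than after DE(a) in DE(b), by 1.098 ± 0.144 and 1.81 ± 0.23, whereas ALDOC was lower after PPS in PM (-1.52 ± 0.24). The count of 8 fell to 4 without PPS-DE(b) replicate 2, and to 5 without PPS-DE(b) replicate 1, DE(a)-PM replicate 1, DE(a)-DE(b) replicate 2, APS-DE(b) replicate 2 or PPS-LM replicate 2. It was 5 with the compared libraries alone, 13 with the replicate block and 17 without the filter.

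**Figure D5:**
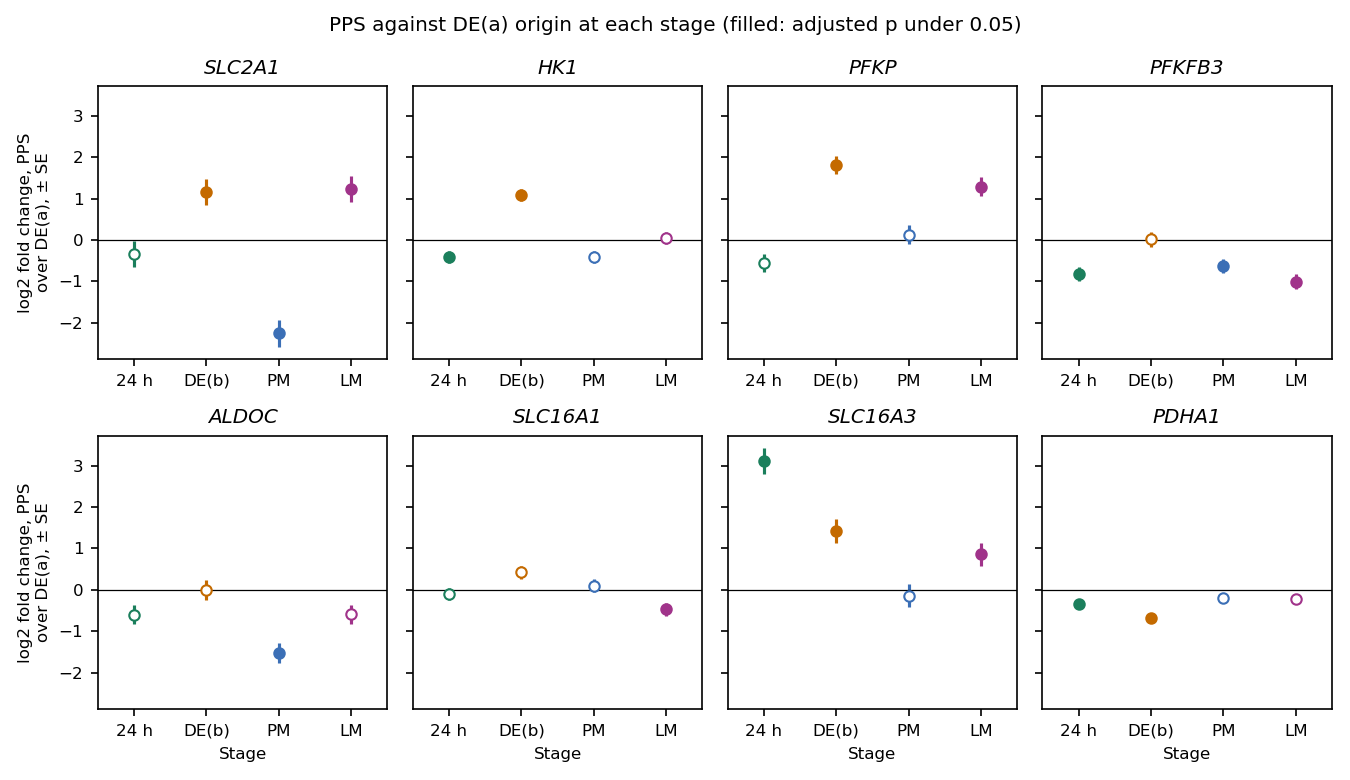
Log2 fold change of PPS against DE(a), with 1 SE, at 24 h and in each medium for the 8 members with a called interaction. SLC2A1 is positive in DE(b) and LM (1.17 and 1.23) and negative in PM (-2.25), and SLC16A3 is largest at 24 h (3.11).

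The response to a medium was also compared between the populations that entered it. DE(b) against 24 h called 21 members from DE(a), 18 from APS, 14 from MPS and 10 from PPS, where 28.0%, 30.6%, 27.9% and 20.5% of all genes were called. For PM the counts were 13, 12, 9 and 7 (23.6%, 25.1%, 22.6% and 20.2%), and for LM 18, 17, 12 and 11 (32.2%, 37.2%, 31.3% and 25.0%). The change from 24 h to DE(b) differed between PPS and DE(a) for 17 members, where 19.9% of all genes were called. PFKP rose from PPS (1.55 ± 0.23) and fell from DE(a) (-0.81 ± 0.22), and ENO1 likewise rose from PPS (0.85 ± 0.22) and fell from DE(a) (-0.67 ± 0.22). The differences were 2.36 ± 0.32 for PFKP and 1.52 ± 0.31 for ENO1 (adjusted p = 3e-05 and 0.0016). ENO2 did the reverse, rising from DE(a) (1.29 ± 0.35) and falling from PPS (-1.03 ± 0.35), a difference of -2.32 ± 0.49 (adjusted p = 0.0021). Calls within a population rest on 2 libraries an arm. The PFKP call from DE(a) was lost without DE(a)-24h or DE(a)-DE(b) replicate 1. The ENO1 calls were lost without DE(a)-24h replicate 1, DE(a)-DE(b) replicate 2 or PPS-24h replicate 2. The ENO2 calls were lost without replicate 2 of DE(a)-24h or PPS-24h or either replicate of PPS-DE(b). For PM the difference between PPS and DE(a) was called for 5 members (7.83% of all genes) and for LM for 8 (13.6%). Between MPS and DE(a) it was called by edgeR for 0 members in DE(b) (8 at an unadjusted p under 0.05, and 3.64% of all genes called), 3 in PM (3.74%) and 4 in LM (8.75%). Between APS and DE(a) it was called for 0 members in each medium, with 2, 2 and 4 at an unadjusted p under 0.05 in DE(b), PM and LM, where 0.0559%, 0.291% and 1.13% of all genes were called. These differences share the 24 h libraries.

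Genes of the neighbouring pathways were counted in the same fit. Over all genes, 16.9% were called higher and 15.6% lower at 24 h against control. In DE(b), PM and LM against 24 h, 24.8%, 23.2% and 27.4% were higher and 26.2%, 25.1% and 28.6% lower. Several counts below lie near these shares. Of 28 other glycolysis and glucose transport genes tested, 4 rose and 4 fell at 24 h against control, and 6, 3 and 5 rose while 9, 10 and 10 fell in DE(b), PM and LM against 24 h. SLC2A14, a testis and stem cell glucose transporter, fell by 1.93, 3.72 and 4.21 on the log2 scale in DE(b), PM and LM. Reads that fit both it and SLC2A3 are an uncertainty of these values too. Of 19 other pyruvate genes tested, 4 rose and 3 fell at 24 h, and 3, 3 and 2 rose while 6, 7 and 9 fell in the media. ME1, the cytosolic malic enzyme, rose at 24 h (1.59 ± 0.20). ME2, its mitochondrial counterpart, rose in DE(b) (2.22 ± 0.11), from 26.6, 37.6 and 60.4 CPM at 24 h to 83.9, 233 and 303 CPM, with no overlap. PC, pyruvate carboxylase, which feeds pyruvate into oxaloacetate, rose in PM (1.41 ± 0.13) and LM (1.39 ± 0.13). PDHB, the partner subunit of PDHA1, fell in PM (-1.04 ± 0.08). Of 7 pentose phosphate genes tested, 1 rose in each medium against 24 h, H6PD, by 1.56 ± 0.11, 1.66 ± 0.11 and 1.57 ± 0.11 for DE(b), PM and LM, while 2, 3 and 3 fell.

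Hypoxia response genes outside glycolysis were counted because many members share that response. Of 20, 6 rose and 3 fell at 24 h against control (median -0.03, all genes 0.01), 12 rose and 3 fell in DE(b) (median 0.62, all genes -0.02), 11 rose and 4 fell in PM (median 0.37) and 11 rose and 0 fell in LM (median 0.68, all genes -0.01). The background shares of genes higher were 16.9% at 24 h and 24.8%, 23.2% and 27.4% in DE(b), PM and LM. Those of genes lower were 15.6% at 24 h and 26.2%, 25.1% and 28.6% in the media. MXI1, an antagonist of MYC, rose in DE(b) (2.04 ± 0.18) and LM (3.44 ± 0.18), BNIP3, a mitophagy receptor, rose in DE(b) (1.74 ± 0.13), and P4HA2, a collagen prolyl hydroxylase, and LOX, a collagen crosslinking enzyme, rose in LM (2.15 ± 0.11 and 2.93 ± 0.42). EGLN3, an oxygen sensor that marks hypoxia-inducible factors for degradation, fell in DE(b) (-1.79 ± 0.16) and PM (-3.21 ± 0.17). Of 13 regulators, 2 rose and 5 fell at 24 h, and 3, 5 and 6 rose while 6, 3 and 6 fell in DE(b), PM and LM. MYCN fell at 24 h (-2.41 ± 0.17) and MYC fell in PM (-2.79 ± 0.19), where TXNIP, which restrains glucose uptake, rose (1.68 ± 0.30). EPAS1, a hypoxia-inducible factor alpha subunit, rose in LM (6.32 ± 0.36), from 0.376 to 1.19 CPM at 24 h to 12.5, 37.6 and 313 CPM.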

How the data were processed

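The authors extracted RNA from 34 cultures, made stranded poly(A) libraries sequenced as paired reads, and deposited estimated counts per gene, made with Salmon 1.10.2 against GRCh38 and summed to genes in R 4.4.2. The counts were rounded, and 0 columns of sample values were left unmatched. In R 4.3.3, edgeR 4.0.16 normalised them by TMM, kept 17895 of 37951 genes by filterByExpr and fitted 17 condition means (common dispersion 0.0611, 17 residual degrees of freedom). Quasi-likelihood tests were adjusted by Benjamini-Hochberg over all genes kept and called under 0.05. Averaged contrasts are means of the log2 changes of the 4 day 1 populations, not ratios of mean CPM. Data were also simulated for PM against 24 h (17230 genes). Changes of 0.5, 1 and 2 on the log2 scale were given to 67, 67 and 66 genes, and all others had the same mean in every condition. Of those changes, 46.3%, 71.6% and 95.5% were recovered, with 11 false calls. In the data 48.2% of genes were called in that comparison, so these rates do not describe it. DESeq2 1.42.0 and other settings were alternatives. The members, lists and tests were chosen with earlier results of these data known. Values in every library were to be given for at most 8 called members with the largest change per comparison, and at most 3 genes per other list, those called with the largest change at 10 CPM or more in some condition. Gene positions are from GENCODE. Pseudogene rows existed for 13 members and held at most 0.43% of the parent's counts.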

Additional observations from a re-analysis of the deposited data

Results flagged for a closer look

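For 8 members, the effect of the day 1 treatment differed between the 3 day 2 media by the interaction test (F test of 6 contrasts over 12 conditions, edgeR quasi-likelihood, adjusted over all genes tested). The adjusted p was 4.25e-05 for SLC2A1, 6.64e-05 for HK1, 0.000575 for PFKP, 0.00596 for SLC16A1, 0.0147 for PFKFB3, 0.0381 for ALDOC, 0.0429 for PDHA1 and 0.0442 for SLC16A3. SLC2A1, the basal glucose transporter, was higher after PPS than after DE(a) in DE(b) and LM and lower after it in PM. SLC16A1 was lowest in PPS-LM, with 350.0 and 340.2 CPM against 494 to 635 CPM in the other LM libraries. PFKFB3 was also lowest in PPS-LM, with 31.5 and 25.6 CPM against 48.8 to 67.7 CPM in the other LM libraries. ALDOC was at 11.1 and 14.1 CPM in PPS-PM and 44.8 and 28.4 CPM in DE(a)-PM.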

How the results depend on the processing

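Of the 187 called member values in the 10 averaged comparisons, 2 were lost with RLE size factors, 9 with unscaled library totals, 12 without the filter, 8 with a fit of the compared libraries alone, 0 with DESeq2 and 0 with the replicate block, and none of these settings reversed a direction. Leaving out 1 library at a time lost 216 of 6358. Members called ranged over these left-out fits from 10 to 18 at 24 h against control, 18 to 21, 15 to 19 and 21 to 24 in DE(b), PM and LM against 24 h, 15 to 19 in DE(b) against PM, 12 to 14 in LM against PM, 19 to 24 in LM against DE(b), and 13 to 21, 13 to 19 and 18 to 22 in DE(b), PM and LM against control. The tests among day 1 treatments moved more. Members called went from 10 to 16 without the filter, 16 with the replicate block, 6 with the compared libraries alone and 6 to 12 without 1 library at 24 h; from 6 to 11, 10, 11 and 5 to 7 in DE(b); from 5 to 11, 8, 1 and 2 to 6 in PM; and from 8 to 17, 13, 5 and 4 to 9 for the interaction. In LM, 9 became 8 to 11 without 1 library. The cause was not tested. Whether replicate numbers pair the libraries is uncertain. Replicates 1 and 2 were deposited in separate tables, and the labels do not say that a number marks a shared culture or batch. Over 136 pairs of conditions the correlation of deviations ran from -0.172 to 0.531 (median 0.142), with 88 over 0.1, so the replicate block was kept as an alternative. With a pseudocount of 1 CPM the control ratio of SLC16A3 to SLC16A1 was 0.00299 in place of 0.00154, and with TMM-scaled totals the control sums were 649 CPM for other glycolysis genes (664 unscaled) and 3212.5 CPM for regulators (3285 unscaled). Depth limits PDK4, at 0 in most libraries.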
